A study of Mus musculus with 2 samples.

Results

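Rgs13, Mef2b, S1pr2, Bcl6, Fas and Basp1 are 6 genes used to recognise germinal-centre B cells, and they were followed here through the leukocytes of mouse pancreatic islets. They were taken by symbol from the 32285 genes of the deposited single-cell matrices, and all 6 were found. One library came from NOD mice, an inbred strain that develops autoimmune diabetes. The other came from mice labelled NOD.Cxcl16-/-, that is, with both alleles of the chemokine gene Cxcl16 disrupted on the same strain. All were females aged 12 weeks, and in both groups live cells with the leukocyte marker CD45 and without the endothelial marker CD31 were sorted from dispersed, hand-picked islets. How many animals each library pools, and how the Cxcl16 allele was made, are not given in the sources used here. Each group is 1 library, so no difference between the libraries has a replicate check and none was tested. Intervals below are exact 95% intervals for counting error only, binomial for shares of cells and Poisson for summed counts.

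After barcodes with fewer than 500 genes or over 10% mitochondrial transcripts were left out, 12252 cells remained of 13859 in the NOD library and 10214 of 10554 in the library labelled NOD.Cxcl16-/-. Their median depth was 4269 and 5189 unique molecular identifiers (UMIs, each counting 1 captured transcript), and 41 of the barcode sequences occurred in both libraries. Cxcl16 itself was detected in 77 of 88 macrophages of the NOD library (87.5%, 78.7 to 93.6%) and in 177 of 207 macrophages of the library labelled NOD.Cxcl16-/- (85.5%, 80.0 to 90.0%). The targeted transcript was therefore present in both libraries, and since 3' tags can lie outside a deleted part it does not check the label. B cells were cells with at least 2 UMIs of Cd79a, a chain of the B-cell receptor, and without T-cell or myeloid transcripts above a low limit. There were 1890 and 2100 of them, with median depths of 4464.5 and 4637 UMIs. Ms4a1, which encodes the B-cell surface protein CD20, was found in 87.6% and 92.6% of them, the lineage factor Pax5 in 54.3% and 57.4%, and the T-cell receptor gene Trac in 4.29% and 2.05%. Plasma cells (63 and 109), taken by Jchain, Xbp1 and Mzb1, held the plasma-cell surface gene Sdc1 in 84.1% and 79.8%. CD4 helper cells (1318 and 1305), which excluded Foxp3-positive cells, held Trac in 91.4% and 92.8%.

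In a germinal centre, B cells that have met antigen divide, mutate their antibody genes and compete for help from follicular helper T cells, and some switch the class of antibody they make. Bcl6 is the transcriptional repressor that both germinal-centre B cells and follicular helper T cells require. Mef2b is a transcription factor that activates Bcl6 in these B cells, S1pr2 is a sphingosine-1-phosphate receptor that keeps them inside the follicle, and Rgs13 shortens signalling of chemokine receptors. Fas is a death receptor whose surface protein is a standard label of germinal-centre B cells, and Basp1 is a membrane-associated signalling protein whose transcript is often high in them. In NOD mice, lymphoid clusters with B cells form around and within islets as insulitis develops.

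The stretches before the start sites of Rgs13, Mef2b and Bcl6 are shown because Rgs13 and Mef2b chose the cells described below and Bcl6 is the regulator of the set. Each is 150 bases on the gene's strand, ending at the base before the start site, from RefSeq on GRCm38.p6. Capitals mark the octamer ATGCAAAT in Mef2b and a match to TTCNNNGAA, the core of STAT-binding elements, in Bcl6, and the Rgs13 stretch holds neither.
Rgs13, chr1:144177373-144177522, minus strand: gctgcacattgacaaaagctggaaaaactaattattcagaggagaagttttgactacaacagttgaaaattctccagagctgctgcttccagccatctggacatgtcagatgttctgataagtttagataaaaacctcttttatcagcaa
Mef2b, chr8:70152611-70152760, plus strand: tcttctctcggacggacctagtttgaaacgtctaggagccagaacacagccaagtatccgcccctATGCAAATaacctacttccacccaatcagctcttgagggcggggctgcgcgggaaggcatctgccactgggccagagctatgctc
Bcl6, chr16:23988853-23989002, minus strand: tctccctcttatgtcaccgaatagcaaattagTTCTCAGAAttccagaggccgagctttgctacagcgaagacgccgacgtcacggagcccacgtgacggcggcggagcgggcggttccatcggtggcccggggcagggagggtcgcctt
Both strands of 300-base windows around the start sites were searched, and RefSeq windows were matched for 6 of the 6 genes. ATGCAAAT, which the B-cell octamer factors bind, occurred in 1.74% of all 32851 windows, and among the 6 genes only in that of Mef2b. TTCNNNGAA occurred in 8.30% of all windows and in those of Bcl6 and Fas. Bcl6 had another RefSeq window, chr16:23981234-23981533, with 3 matches, and the stretch shown above comes from its window with 1. The E-box CAGGTG, bound by E2A proteins, occurred in 20.2% of all windows and in those of Mef2b and S1pr2. These matches describe letters in a window, and binding was not measured.

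Rgs13 was the most restricted to B cells of the 6 genes over the 5 cell classes compared. It lies on chr1:144138654-144177372 of GRCm38, on the minus strand. At least 1 UMI was found in 34 of 1890 B cells of the NOD library (1.80%, 1.25 to 2.50%) and in 87 of 2100 of the library labelled NOD.Cxcl16-/- (4.14%, 3.33 to 5.09%). In CD4 helper cells it was found in 0 of 1318 and 0 of 1305 cells, which by a limit of 3 counts allows shares of up to 0.228% and 0.230%, and CD8 T cells held it in 1 and 2 cells. Plasma cells held it in 1 of 63 (1.59%, 0.0402 to 8.53%) and 2 of 109 (1.83%, 0.223 to 6.47%), intervals that include the B-cell shares. Summed over B cells, Rgs13 stood at 12.3 CPM (summed UMIs scaled to the total UMIs of the class, 10.3 to 14.7) in the NOD library and 26.6 CPM (23.9 to 29.6) in the other. Summed over plasma cells, it stood lower, at 3.06 CPM (0.995 to 7.15) and 4.55 CPM (2.49 to 7.63). One B cell of the NOD library alone held 36 Rgs13 UMIs, the most of any B cell in either library.

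Shares of cells with a UMI rise with depth, so each cell was also thinned to 2000 random UMIs, and 205 and 74 B cells too shallow for this were left out. Rgs13 was then found in 0.890% and 1.78% of B cells. The larger share remained in the library labelled NOD.Cxcl16-/-, but the intervals of the thinned shares overlapped.

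Mef2b lies on chr8:70139711-70167488, plus strand, and overlaps Borcs8 on the same strand, with a read-through transcript of both genes in the annotation, so some UMIs assigned to Mef2b could come from Borcs8. The start site used for the sequence above lies inside this span. It was found in 161 B cells of the NOD library (8.52%, 7.30 to 9.87%) and 199 of the other (9.48%, 8.26 to 10.8%). Thinned, the B-cell shares were 3.15% and 3.36%, beside 1.89% (1.32 to 2.62%) and 2.06% (1.36 to 2.98%) in CD8 T cells, a type that should lack the gene. The thinned intervals of the 2 classes overlapped. Summed Mef2b was 20 CPM (17.3 to 22.9) in B cells of the NOD library and 32.8 CPM (29.8 to 36.1) of the other, with at most 7 and 27 UMIs in 1 cell. The summed level in CD8 T cells was lower, at 6.97 CPM (5.81 to 8.30) and 8.17 CPM (6.65 to 9.93).

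S1pr2 lies on chr9:20962361-20976781, minus strand, and was the rarest of the 6 in B cells. It was found in 11 B cells of the NOD library (0.582%, 0.291 to 1.04%) and in 37 of the other (1.76%, 1.24 to 2.42%). Thinned, the shares were 0.237% and 0.494% in B cells, 0.978% and 0.472% in CD4 helper cells, and 0.812% and 0.381% in CD8 T cells. At equal depth the S1pr2 share of B cells was below that of CD8 T cells in the NOD library and near it in the other. The intervals overlapped in both. A single UMI of S1pr2 by itself was therefore not read as expression, although it counted as 1 of the 2 genes needed to mark a B cell below. Summed S1pr2 stood at 1.28 CPM (0.684 to 2.20) in B cells against 2.21 CPM (1.58 to 3.01) in CD8 T cells of the NOD library, and at 4.97 CPM (3.83 to 6.34) against 2.51 CPM (1.70 to 3.56) in the other.

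Bcl6, Fas and Basp1 were broader. Bcl6 (chr16:23965052-23988852, minus strand) was found in 301 B cells of the NOD library (15.9%, 14.3 to 17.7%) and 410 of the other (19.5%, 17.8 to 21.3%). Thinned shares were 7.30% and 8.69% in B cells, 8.31% and 11.4% in CD4 helper cells, 4.65% and 6.02% in CD8 T cells, and 10.8% and 8.70% in macrophages. No thinned plasma cell held Bcl6, with upper limits of the exact interval of 5.69% and 3.42%.

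Fas (chr19:34290666-34327772, plus strand) was found in 195 B cells of the NOD library (10.3%, 8.98 to 11.8%) and 384 of the other (18.3%, 16.7 to 20%). It was more widespread in T cells, with thinned shares of 18% and 20.7% in CD8 T cells and 10.4% and 13.4% in CD4 helper cells, against 4.63% (3.68 to 5.74%) and 7.80% (6.67 to 9.05%) in B cells. Of the 6 genes, Fas alone had thinned B-cell shares whose intervals did not overlap between the libraries.

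Basp1 (chr15:25363277-25413764, minus strand) was found in 191 B cells of the NOD library (10.1%, 8.78 to 11.6%) and 326 of the other (15.5%, 14.0 to 17.1%). Thinned shares were 63.5% and 76.1% in macrophages, 22.2% and 24.5% in plasma cells, 6.11% and 8.19% in B cells, and 4.56% and 4.32% in CD4 helper cells. Basp1 was thus more frequent in macrophages and plasma cells than in B cells, in both libraries beyond the counting intervals.

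**Figure D1:**
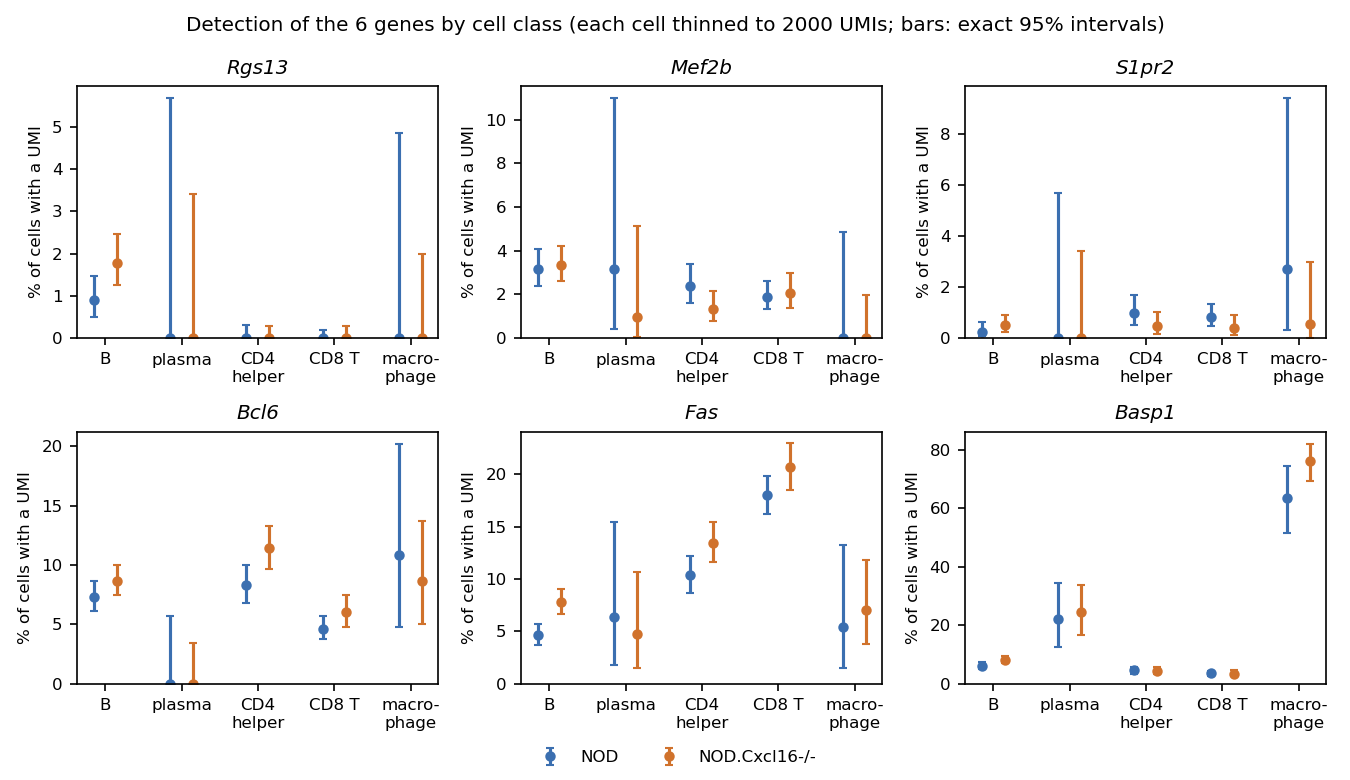
Share of cells with at least 1 UMI of each gene (y axis, percent, after thinning every cell to 2000 UMIs) in B cells, plasma cells, CD4 helper cells, CD8 T cells and macrophages (x axis) with 1 colour a library. Bars are exact 95% intervals for counting error, and the panels have their own scales: Rgs13 is seen in B cells at 0.890% and 1.78%, whereas Basp1 reaches 63.5% and 76.1% in macrophages.

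Pairs of the 6 genes tended to be found in the same B cells at full counts, and less so at equal depth. With full counts, the share of B cells with one gene was larger among cells with another than among cells without it for 15 of 15 pairs in each library. Mef2b was found in 63.6% (30.8 to 89.1%) of B cells with S1pr2 and 8.20% of those without in the NOD library, and in 81.1% (64.8 to 92.0%) against 8.19% in the other. Given Rgs13, Mef2b was found in 35.3% (19.7 to 53.5%) against 8.03%, and in 52.9% (41.9 to 63.7%) against 7.60%. Bcl6 followed Mef2b less closely, in 18.6% of B cells with Mef2b against 15.7% without in the NOD library and 29.6% against 18.5% in the other.

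Depth moves with these pairs, since deep cells hold more of every gene. B cells with none of the 6 genes had median depths of 4160.5 and 4264 UMIs. Those with all 6, only 2 and 15 cells, had 34329 and 23592. Thinned to 2000 UMIs, 8 of the 15 pairs in the NOD library and 11 in the other had the larger share. Fas was then found in 10.7% (5.45 to 18.3%) of B cells with Basp1 against 4.24% without, and in 19.3% (13.6 to 26.1%) against 6.77% (5.67 to 8.01%). In the library labelled NOD.Cxcl16-/-, Rgs13 given Mef2b was 11.8% (5.22 to 21.9%) against 1.43% (0.952 to 2.06%), and Rgs13 given Basp1 was 7.23% (3.79 to 12.3%) against 1.29% (0.828 to 1.91%). In the NOD library, thinned Rgs13 given Mef2b was 3.77% (0.460 to 13.0%) against 0.797%, with overlapping intervals. Thinned Mef2b was found there in 0 of 4 cells with S1pr2. Bcl6 given Basp1 went 11.7% against 7.02% in the NOD library and 5.42% against 8.98% in the other, so this pair did not keep 1 direction at equal depth.

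**Figure D2:**
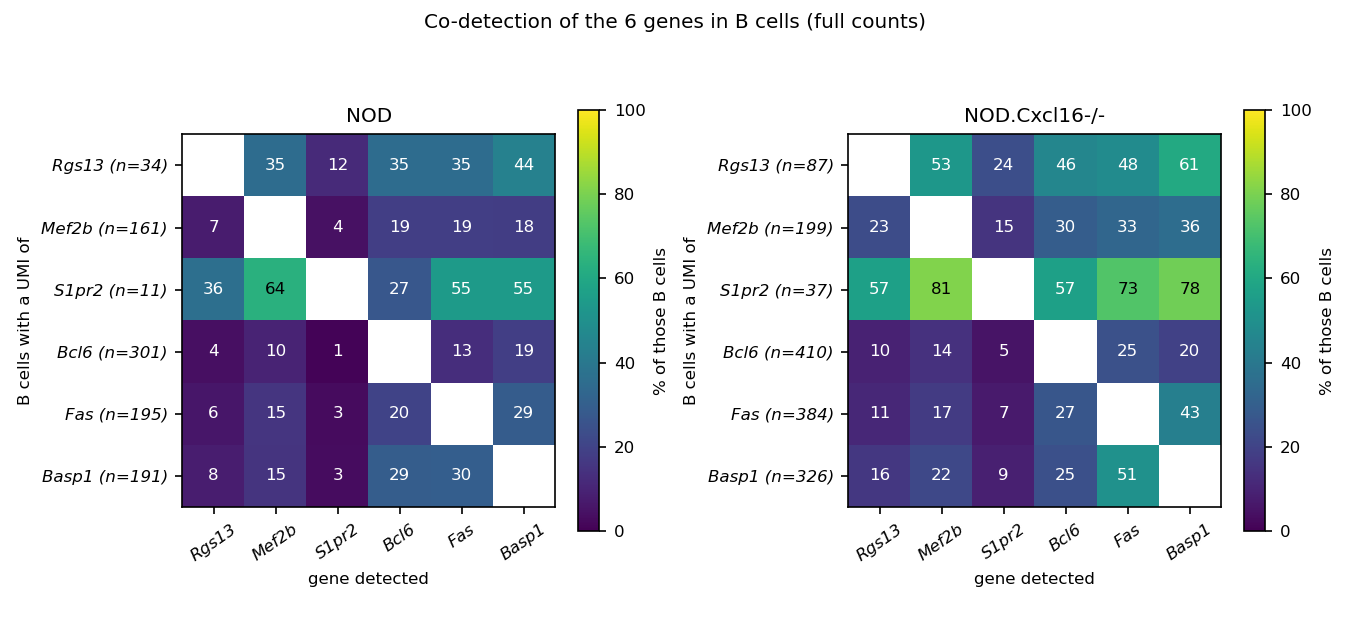
Percent of B cells holding the row gene that also hold the column gene, at full counts, with 1 panel for each library. Lighter colours are higher shares, and the S1pr2 row is highest at Mef2b, 63.6% and 81.1%, from only 11 and 37 cells.

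B cells with at least 2 of the 3 genes Rgs13, Mef2b and S1pr2 are called marked B cells below, and the remainder other B cells. There were 15 marked cells in the NOD library (0.794% of B cells, 0.445 to 1.31%) and 55 in the library labelled NOD.Cxcl16-/- (2.62%, 1.98 to 3.40%). Of all kept cells they made up 0.122% (0.0685 to 0.202%) and 0.538% (0.406 to 0.700%). Rgs13 with Mef2b accounted for 8 and 25 of them, Mef2b with S1pr2 for 3 and 9, and all 3 genes for 4 and 21, while Rgs13 with S1pr2 and no Mef2b occurred in 0 and 0.

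Marked cells were deep, with medians of 11713 and 18247 UMIs against 4454 and 4599 in other B cells. Among B cells with at least 10000 UMIs, 10 of 128 were marked in the NOD library (7.81%, 3.81 to 13.9%) and 44 of 189 in the other (23.3%, 17.5 to 30%). After thinning, 0.119% and 0.592% of B cells were marked. The larger share stood in the library labelled NOD.Cxcl16-/- in each of these counts, and the intervals did not overlap except after thinning, where only 2 and 12 cells were marked.

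Marked cells carried few UMIs of each marking gene. In the NOD library the lowest, median and highest counts were 0, 2 and 14 for Rgs13, 1, 2 and 7 for Mef2b, and 0, 0 and 2 for S1pr2. In the other library they were 0, 3 and 27 for Rgs13, 1, 3 and 27 for Mef2b, and 0, 1 and 10 for S1pr2. The cell with 36 Rgs13 UMIs in the NOD library was not among them, since it held no UMI of Mef2b or S1pr2.

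The 3 genes that did not choose the cells differed in how far they followed. Basp1 was found in 12 of 15 marked cells (80.0%, 51.9 to 95.7%) against 9.55% of other B cells in the NOD library, and in 47 of 55 (85.5%, 73.3 to 93.5%) against 13.6% in the other. Fas was found in 9 of 15 (60.0%, 32.3 to 83.7%) against 9.92%, and in 42 of 55 (76.4%, 63.0 to 86.8%) against 16.7%. Bcl6 was found in 6 of 15 (40.0%, 16.3 to 67.7%) against 15.7%, and in 33 of 55 (60.0%, 45.9 to 73.0%) against 18.4%.

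At 2000 UMIs a cell the Basp1 share of marked cells lay above that of other B cells beyond the intervals in both libraries. That of Fas did so only in the library labelled NOD.Cxcl16-/-, and that of Bcl6 in neither. Basp1 was found in 33.3% (11.8 to 61.6%) of marked cells against 5.87% of other B cells in the NOD library and in 52.7% (38.8 to 66.3%) against 6.95% in the other. Fas stood at 6.67% (0.169 to 31.9%) against 4.61% and at 18.2% (9.08 to 30.9%) against 7.51%. Bcl6 stood at 6.67% (0.169 to 31.9%) against 7.31% and at 14.5% (6.50 to 26.7%) against 8.52%. The intervals of Fas and Bcl6 in marked cells overlapped in both libraries. At this depth the Bcl6 share of marked cells could not be told from that of other B cells in either library, although Bcl6 is the regulator of the germinal centre.

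Cells with at least 10000 UMIs were also compared with each other, with median depths of 21807 for marked and 14469 for other B cells in the NOD library and 21351.5 and 15273 in the other. Of marked cells with at least 10000 UMIs in the library labelled NOD.Cxcl16-/-, 95.5% (84.5 to 99.4%) held Basp1, against 55.9% (47.4 to 64.1%) of other B cells above the same limit. Fas was found in 93.2% (81.3 to 98.6%) against 51.7% (43.3 to 60.1%), and Bcl6 in 65.9% (50.1 to 79.5%) against 29.7% (22.4 to 37.8%). In the NOD library, with 10 marked cells, the shares were 100% against 43.2% for Basp1, 80.0% against 44.1% for Fas and 60.0% against 33.1% for Bcl6.

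By thinned Basp1, B cells with a single marking gene lay nearer to B cells with none than to those with 2. Rgs13 without Mef2b or S1pr2 was found in 22 and 41 B cells, and Mef2b alone in 146 and 144. Ighd, the constant gene of the IgD class that naive B cells carry, was found in 90.9% and 73.2% of the cells with Rgs13 alone. It was found in 25.0% and 4.76% of those with all 3 genes, which were only 4 and 21 cells. Thinned Basp1 was found in 5.64% and 6.73% of B cells with none of the 3 genes, in 7.98% and 9.04% with 1, in 27.3% and 44.1% with 2 and in 50% and 66.7% with all 3. Thinned Fas went from 4.51% and 7.57% with none to 9.09% and 17.6% with 2, in cells too few to separate the intervals. Over all marked cells, with 2 or 3 of the genes, it was 6.67% and 18.2%, so in the NOD library it did not rise further with all 3.

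**Figure D3:**
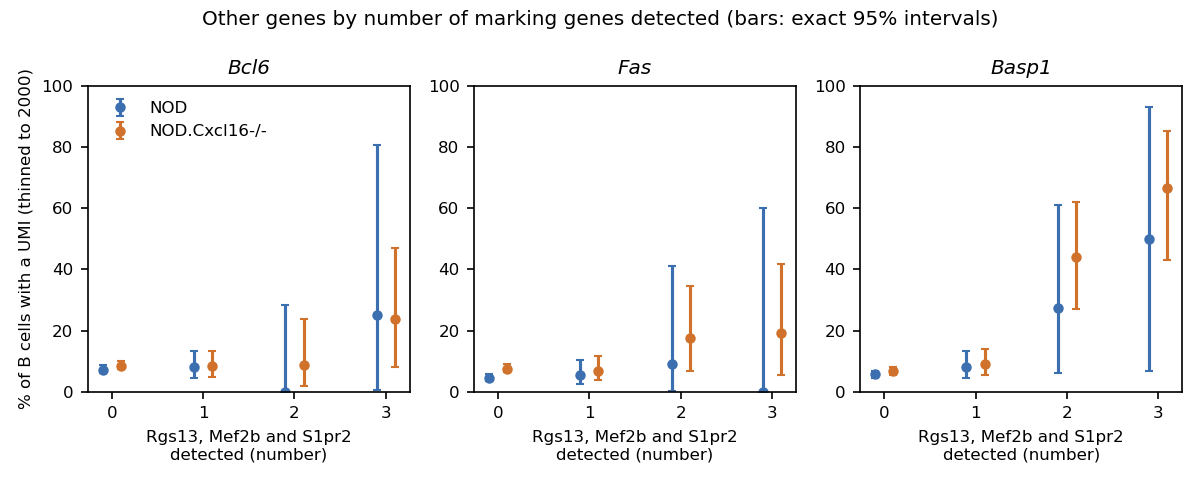
Share of B cells with Bcl6, Fas or Basp1 (y axis, percent, thinned to 2000 UMIs) by how many of Rgs13, Mef2b and S1pr2 the cell held at full counts (x axis, 0 to 3), for both libraries, with exact 95% intervals. Basp1 steps up between 1 and 2 marking genes in both libraries, with overlapping intervals in the NOD library, whereas Bcl6 goes from 7.98% and 8.51% for 1 to 0% and 8.82% for 2 and to 25.0% and 23.8% for 3, from 4 and 21 cells.

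Transcript levels were then compared between marked and other B cells within each library, from summed CPM. Log2 ratios have 1 CPM added on both sides, genes needed 20 UMIs, and with 1 library a group a gene is counted as higher or lower when it is past 2-fold, with no test. Basp1 stood at 248 CPM in marked against 69.8 CPM in other B cells of the NOD library (log2 ratio 1.81, counting interval 1.47 to 2.17) and at 425 against 97.4 CPM in the other (2.11, 1.98 to 2.27). Fas stood at 80.4 against 26.0 CPM (1.59, 0.97 to 2.22) and at 115 against 48.2 CPM (1.23, 0.98 to 1.51). Bcl6 stood at 45.0 against 37.8 CPM (0.25, -0.63 to 1.02) and at 62.7 against 42.3 CPM (0.56, 0.21 to 0.91). Basp1 and Fas were past 2-fold in both libraries and Bcl6 in neither.

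The marking genes chose the cells, so their own ratios are only a description. Rgs13 stood at 186 against 6.83 CPM and at 184 against 8.81 CPM, and Mef2b at 109 against 17.1 CPM and at 204 against 13.6 CPM. S1pr2 stood at 42.9 against 0.691 CPM in the library labelled NOD.Cxcl16-/-, and in the NOD library, with 9 UMIs in marked and 4 in other B cells, it was under the filter. Of the 3 genes that did not choose the cells, 2 were at least 2-fold higher in each library, where 12.9% and 11.7% of all genes were, and 0 were at least 2-fold lower, beside 23.1% and 15.2% of all genes.

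Other germinal-centre genes moved with them to different degrees. Of a list of 16, 14 passed the filter in the NOD library with 7 past 2-fold higher and 0 lower, and 16 in the other with 10 higher and 1 lower. Among all genes, 12.9% and 11.7% were at least 2-fold higher and 23.1% and 15.2% lower. The list's median log2 ratios were 1.23 and 1.99, against -0.10 and -0.07 over all genes. The transcription factor Mybl1 had log2 ratios of 4.37 and 3.65, the uracil glycosylase Ung 2.48 and 1.66, the mutation-prone polymerase Polh 1.62 and 2.67, and the histone methyltransferase Ezh2 2.40 and 2.31. Lmo2, a germinal-centre transcription cofactor, went the other way at -0.94 and -1.10. Irf8 (-0.19 and 0.07) and Bach2 (-0.46 and -0.33), broader B-cell factors, lay near the median of all genes.

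Proliferation genes stood high throughout. All 12 genes of a cell-cycle list were at least 2-fold higher in marked cells in both libraries, beside 12.9% and 11.7% of all genes. Their median log2 ratios were 2.45 and 3.18, with Mki67 at 3.23 and 3.33. Of 6 dark-zone genes, 4 were higher in each library, beside the same shares of all genes, and these 4 (Mki67, Ccnb1, Ccnb2 and Aurka) are mitotic genes. The chemokine receptor Cxcr4, which places cells in the dark zone, stood at -0.48 and -1.63 and the dark-zone transcription factor Foxo1 at -0.50 and -0.89. Of 6 light-zone genes 0 were higher in either library, beside 12.9% and 11.7% of all genes. Of the same 6, 2 and 3 were lower, beside 23.1% and 15.2% of all genes, with list medians of -0.91 and -1.07.

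Genes of resting follicular B cells stood low. Of 11, 9 in the NOD library and 10 in the other were at least 2-fold lower, beside 23.1% and 15.2% of all genes. The list medians were -2.97 and -2.84. The lower genes included the lymph node homing receptor Ccr7 (-2.97 and -3.04), the survival gene Bcl2 (-3.80 and -3.38), which Bcl6 is known to repress, and Ighd (-3.13 and -3.77).

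By a rule on the size of the ratio in both libraries, 12 genes outside all lists were taken as highest in marked over other B cells. Their likeness to the marking genes from cell to cell was not measured. Those reported here were Cdc20 (3.93 and 3.61), Cep55, Tpx2, Cenpf, Hmmr, Aspm, Ada (3.32 and 3.80), Plk1, E2f8 (3.25 and 3.90), Pttg1 and Clspn. Among them, Cdc20 and Plk1 are known to act in mitosis and Ada in purine metabolism. Lowest by the same rule were Cpne4, Zfp831, Agbl1, the integrin Itgb7 (-4.02 and -3.83), Rflnb (-3.89 and -3.66) and the interferon-inducible Ifi214 (-3.48 and -3.96). Zfp831 had 0 UMIs in marked cells of either library against 175 and 200 in other B cells, and Agbl1 0 against 207 and 173. Of 10566 genes that passed the filter in both libraries, 772 were at least 2-fold higher in both.

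**Figure D4:**
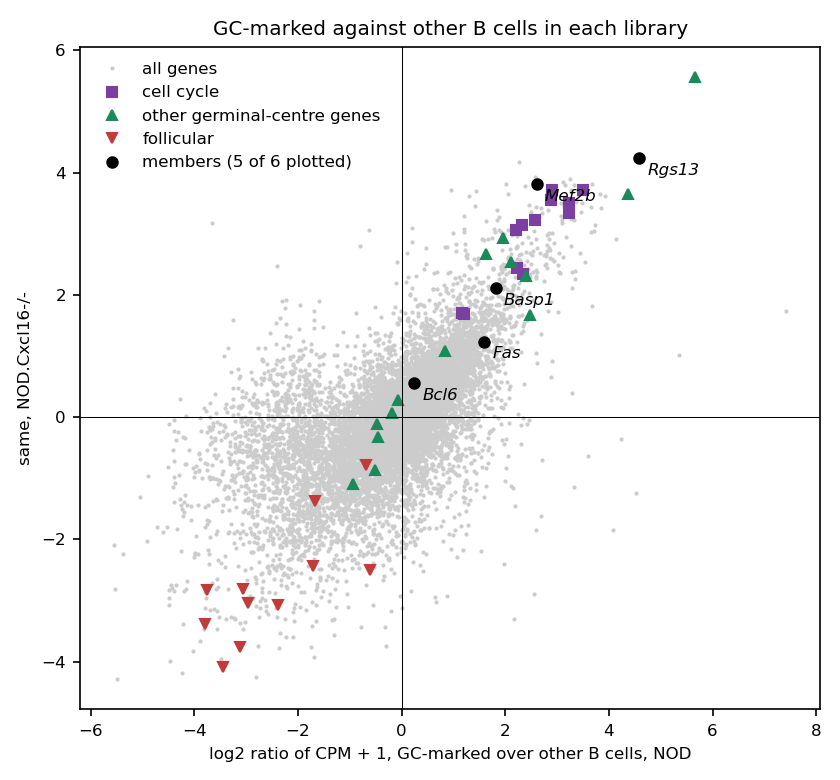
Log2 ratio of marked (GC-marked in the plot) over other B cells (summed CPM, 1 CPM added) in the NOD library (x axis) and the library labelled NOD.Cxcl16-/- (y axis) for genes with at least 20 UMIs in each. Of the 6 genes 5 are drawn, since S1pr2 was under the filter in the NOD library: Bcl6 lies near the origin at 0.25 and 0.56, while Basp1 (1.81 and 2.11) lies among the genes high in both, the cell-cycle genes lie high and the follicular genes low.

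Partner and target genes of the members were followed from short lists. S1pr2 signals through Gna13 and Arhgef1, and these stood at -0.24 and -0.24 and at -1.04 and -0.87. In the list of 8 confinement genes that holds them, 1 was higher and 2 were lower in the NOD library and 0 and 3 in the other. Among all genes, 12.9% and 11.7% were at least 2-fold higher and 23.1% and 15.2% lower. S1pr1, the receptor that draws B cells out of tissue, was lower at -2.38 and -3.08. Rgs1, a relative of Rgs13, stood at 1.31 and 0.25.

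Of 5 corepressor genes with which Bcl6 works, 4 passed the filter and 0 were past 2-fold in either direction in either library, with Hdac3 at 1.00 and 0.85. Among all genes, 12.9% and 11.7% were at least 2-fold higher and 23.1% and 15.2% lower. Of 5 genes that Bcl6 is known to repress, 0 were higher, beside 12.9% and 11.7% of all genes. Of the same 5, 1 and 2 were lower, beside 23.1% and 15.2% of all genes. Cd69, which holds lymphocytes in tissue, was lower in both libraries at -1.21 and -2.01. The cyclin Ccnd2 stood at -0.91 and -1.34. Repression by Bcl6 was not tested. The other MEF2 genes did not follow Mef2b, with Mef2a at -0.21 and -0.44, Mef2c at -0.31 and -0.51, and Mef2d at -1.45 and -0.69. Borcs8, which overlaps Mef2b, stood at 135 against 56.9 CPM in the NOD library and 81.9 against 53.5 CPM in the other, and its part in the Mef2b values was not tested.

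Fas kills through the adaptor Fadd and the protease Casp8, with Bid as a mitochondrial relay and Cflar as a brake. Bid stood at 1.57 and 1.57, Fadd at 0.88 and 1.14, Casp8 at 0.18 and 0.55 and Cflar at -0.16 and -0.24, so 1 and 2 of the 4 that passed were higher. Among all genes, 12.9% and 11.7% were at least 2-fold higher. Fasl, the ligand, had 0 UMIs in marked cells of either library.

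Division and the marking genes overlapped without coinciding. At least 2 of the 5 genes Mki67, Top2a, Cdk1, Birc5 and Ccna2 were found in 9 of 15 marked cells (60.0%) and 38 of 55 (69.1%), and thinned in 33.3% and 45.5%. Other B cells had them in 2.88% and 2.89%, which is 54 and 59 cells. Of these dividing other B cells Rgs13 was found in 1 and 4, while Fas was found in 40.7% and 57.6% and Basp1 in 38.9% and 50.8%. The median depths of these dividing cells, which held at most 1 marking gene, were 15987 and 20162 UMIs, above those of marked cells. Other B cells with at least 10000 UMIs, dividing or not, had median depths of 14469 and 15273. They held Fas in 44.1% and 51.7% and Basp1 in 43.2% and 55.9%. The part of depth in the shares of the dividing cells was not tested.

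Within the marked cells of the library labelled NOD.Cxcl16-/-, Rgs13 was found in 17 of 17 cells with fewer than 2 of the 5 division genes and in 29 of 38 with more. Its level was 483 CPM (381 to 604) in the former and 143 CPM (122 to 167) in the latter. In the NOD library the levels were 104 CPM (41.8 to 214) in 6 cells and 209 CPM (156 to 275) in 9, the opposite order with overlapping intervals. Rgs13 helped choose the marked cells, so these values are a description. Fas was found in 8 of 9 dividing against 1 of 6 other marked cells and in 34 of 38 against 8 of 17, where the dividing cells had median depths of 18798 and 22738.5 UMIs and the others 9050 and 9441. Its summed level was not higher in the dividing cells, at 77.9 against 89.1 CPM and at 112 against 138 CPM, with overlapping intervals.

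Each cell was given the antibody class of its highest heavy-chain constant gene. Marked cells were mostly of the IgM class in the NOD library, with Ighm highest in 11 of 15 (73.3%, 44.9 to 92.2%) and a switched gene (IgG, IgA or IgE) in 3 (20%, 4.33 to 48.1%). In the library labelled NOD.Cxcl16-/-, Ighm was highest in 21 of 55 (38.2%) and a switched gene in 29 (52.7%, 38.8 to 66.3%), of which Ighg2b made up 21, Ighg2c 5 and Ighg1 3. Other B cells were switched in 9.33% and 13.2%, and plasma cells in 61.9% and 69.7%. The marked cells of the library labelled NOD.Cxcl16-/- were thus switched more often than its other B cells beyond counting error, while for the 15 of the NOD library the interval spanned the share of its other B cells. Summed Ighg2b went the other way in the library labelled NOD.Cxcl16-/-, at 363 CPM in marked against 1028 CPM in other B cells, of which 1 cell held 9681 of the 11903 UMIs, and stood at 203 against 127 CPM in the NOD library.

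**Figure D5:**
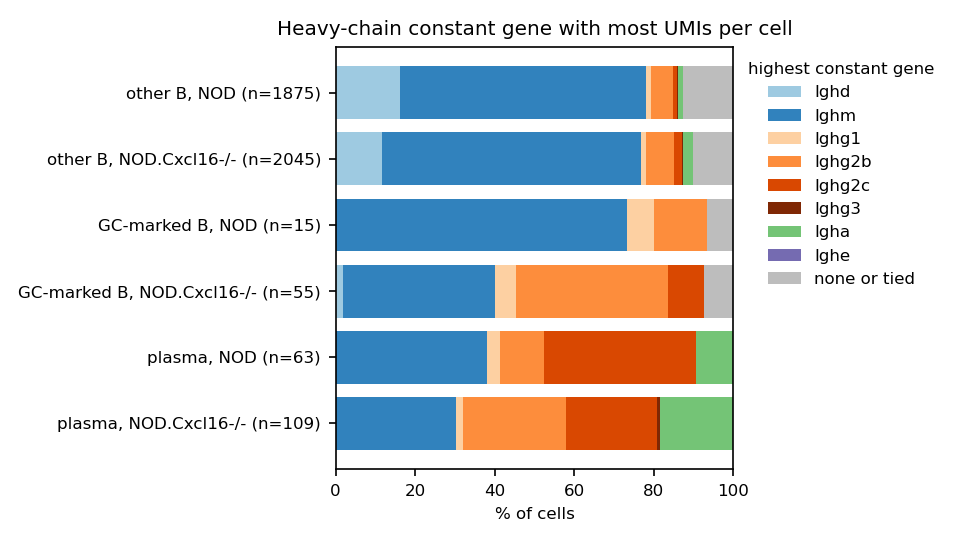
Percent of cells (x axis, stacked) by the heavy-chain constant gene with the most UMIs, in other B cells, marked B cells (GC-marked in the plot) and plasma cells of each library (y axis). Ighm fills 73.3% of the marked cells in the NOD bar and 38.2% in the bar labelled NOD.Cxcl16-/-, where Ighg2b fills as much.

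The marked cells were checked for transcripts of other cell types. They held 0 UMIs of Trac in both libraries and 0 of the plasmacytoid gene Siglech, with 2 and 5 UMIs of the myeloid gene Lyz2 in all and at most 2 of each of Cd3e, Cd3d, Cd3g, C1qa, C1qb and Csf1r. The T-cell kinase gene Lck had 7 and 19 UMIs, at 22.5 against 31.6 CPM in other B cells and at 14.5 against 31.2 CPM. The plasma-cell genes Sdc1 and Tnfrsf17 were found in 0 of 15 and 0 of 55 marked cells, which by the limit of 3 counts allows shares of up to 20% and 5.45%. The list of 8 plasma-cell genes that holds both did not go 1 way. In each library 6 passed the filter, with 1 past 2-fold higher and 1 lower. Among all genes, 12.9% and 11.7% were higher and 23.1% and 15.2% lower. Slpi stood at 1.64 and 0.86, Jchain at -0.46 and 1.18, Mzb1 at 0.36 and 0.61, and Irf4 at -1.16 and -1.74. Of markers of stroma and follicular dendritic cells, Col1a1 was at 0 in B cells, Pdgfrb was found in 6 and 3 B cells and Cxcl13 in 10 and 14. Low limits on T-cell and myeloid transcripts are part of how B cells were taken, so these levels are in part set by it.

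Over all B cells, the library labelled NOD.Cxcl16-/- had 5 of the 6 genes at least 1.5-fold higher than the NOD library, beside 3.27% of 12075 genes, and 0 lower, beside 2.63%. The log2 ratios were 1.39 (1.08 to 2.94) for S1pr2, 1.05 (0.81 to 1.42) for Rgs13 and 0.97 (0.79 to 1.20) for Fas. They were 0.79 (0.67 to 0.92) for Basp1, 0.69 (0.47 to 0.97) for Mef2b and 0.22 (0.03 to 0.41) for Bcl6. S1pr2 had only 13 UMIs in the NOD library and passed the filter through its 64 UMIs in the other. Its NOD level, 1.28 CPM, lay close to the 1 CPM added, so the size of the S1pr2 ratio depends on that setting. Genotype and library cannot be told apart in these ratios. Transcripts of other cell types also differed in the same B cells: 4 of 4 myeloid genes were at least 1.5-fold higher in the library labelled NOD.Cxcl16-/- (median log2 ratio 0.65), for example C1qa at 4.97 against 2.17 CPM, and 3 of 3 T-cell genes were lower (-0.80). Their part in the ratios of the 6 genes, among them Basp1, which stood at 596 and 967 CPM in macrophages, was not tested.

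Without the marked cells the ratios were smaller. In other B cells 1 of the 5 genes that passed the filter was at least 1.5-fold higher, beside 2.19% of all genes, and 0 were lower, beside 2.7%. Fas was that gene, at 0.87 (0.67 to 1.11). Basp1 stood at 0.47 (0.34 to 0.62), Rgs13 at 0.33 (-0.09 to 0.83), Bcl6 at 0.16 and Mef2b at -0.32 (-0.66 to -0.01). S1pr2, with 4 UMIs in the NOD library and 8 in the other, was under the filter. For Rgs13, Mef2b and S1pr2 this follows in part from how the marked cells were chosen. Fas did not choose the cells, and its higher level in the library labelled NOD.Cxcl16-/- was present outside the marked set.

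Plasma cells, the antibody-secreting end of the lineage, held Basp1, Fas and Mef2b more often than the other genes of the set. Basp1 was found in 47 of 63 plasma cells of the NOD library (74.6%) and 72 of 109 of the other (66.1%), at 148 CPM (130 to 168) and 214 CPM (198 to 231). Fas was found in 46.0% and 55.0%, and thinned in 6.35% and 4.72%, close to its thinned share of B cells. Mef2b was found in 33.3% and 27.5%, at 22.1 CPM (15.4 to 30.5) and 14.6 CPM (10.7 to 19.5), and thinned in 3.17% and 0.943%. Rgs13 was found in 1 and 2 plasma cells and S1pr2 in 1 and 7. Bcl6 stood at 4.90 CPM (2.12 to 9.66) and 10.1 CPM (6.84 to 14.3), against 38.0 CPM (34.3 to 42.0) and 44.4 CPM (40.8 to 48.2) in B cells.

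Plasma cells were also the deepest cells, with medians of 24845 and 27285 UMIs. Between the libraries 1 of the 4 genes that passed the filter in plasma cells was at least 1.5-fold higher in the library labelled NOD.Cxcl16-/-, beside 17.4% of all genes, and 0 were lower, beside 6.2%. That gene was Bcl6 (0.91, -0.12 to 2.37), whose counting interval includes no difference. At least 4 of the 6 genes were found together in 3 and 9 plasma cells, and all 6 in 0 and 1.

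CD4 helper cells shared Bcl6 and Fas with B cells and lacked Rgs13. Bcl6 was found in 276 of 1318 (20.9%) and 341 of 1305 (26.1%), at 48.3 and 54.3 CPM, and Fas in 24.7% and 30.8%, at 58.4 and 73.8 CPM. S1pr2, which follicular helper T cells also carry, stood at 5.15 CPM (3.76 to 6.89) in the NOD library and 2.75 CPM (1.80 to 4.03) in the other. Between the libraries 0 of the 5 genes that passed the filter were at least 1.5-fold higher, beside 2.1% of all genes, and 1, S1pr2 at -0.71, was lower, beside 4.03%. The largest number of the 6 genes in 1 helper cell was 4, in 9 and 4 cells.

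Helper cells with Il21 or Cxcr5, a cytokine and a receptor of follicular helper T cells, numbered 350 and 325. In the NOD library 0 of 5 genes were at least 1.5-fold higher in them than in other helper cells, beside 8.91% of all genes, and 0 lower, beside 7.8%. In the other library 1 was higher, Basp1 at 0.62, beside 8.15%, and 0 lower, beside 7.05%. Bcl6 stood at 0.44 (0.17 to 0.73) in the NOD library and at 0.00 (-0.26 to 0.26) in the other. Its thinned shares were 10.4% against 7.53% and 13.9% against 10.5%, and the difference between the libraries was not tested. Of the follicular helper list, 8 of 11 genes and 6 of 12 were at least 1.5-fold higher there, Il21 and Cxcr5 among them by choice, and 0 and 1 lower (Il4, with 1 UMI against 45), with Tox2 at 1.35 and 0.76 and the receptor gene Btla at 1.15 and 0.75.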

How the data were processed

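The authors deposited unnormalised UMI counts for every gene in every barcode (10x Genomics 3' libraries), made with Cell Ranger 7.0.1 on mm10 per the submitters' processing notes. The annotation release and whether intronic reads were counted are not given in the sources used here. No deposited barcode had under 500 UMIs. Cells were classed by UMI limits: plasma cells had at least 20 Jchain, 3 Xbp1 and 3 Mzb1, and B and plasma cells had fewer than 2 UMIs of Cd3e, Cd3d and Cd3g together and fewer than 3 of Lyz2, C1qa, C1qb and Csf1r. Mixed-lineage barcodes were left out in place of a doublet caller, and a Scrublet-like score (0.8% for each 1000 barcodes) was an alternative. Genes were named when they were members or on a list, or, outside the lists, as the 12 highest and 6 lowest by the less extreme log2 ratio of the libraries, without immunoglobulin variable, mitochondrial and ribosomal protein genes. The members and lists were chosen with earlier results of these data known. Gene positions come from GENCODE M21, which holds 32158 of the 32285 gene IDs. The ratio script was tested on simulated data. Python 3.11.15, numpy 2.4.6, scipy 1.17.1, pandas 2.3.3 and scikit-learn 1.9.0 were used. Other limits for Cd79a, genes per barcode, UMIs per gene, added CPM and marking genes were tried as alternatives. Some genes of the lists and of the naming rule are not reported here.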

Additional observations from a re-analysis of the deposited data

Results flagged for a closer look

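Barcodes with Cd79a that also held T-cell, myeloid or plasmacytoid transcripts belonged to no class and entered no comparison, yet the marking genes occurred in them. At least 2 of Rgs13, Mef2b and S1pr2 were found in 30 of 1022 such barcodes of the NOD library (2.94%, 1.99 to 4.16%) and in 46 of 680 of the library labelled NOD.Cxcl16-/- (6.76%, 4.99 to 8.92%). Their median depths were 62630.5 and 33293 UMIs, against 6637.5 and 11206 over all mixed-lineage barcodes. T-cell transcripts were present in 29 of the 30 and 45 of the 46. The doublet score marked 26 of the 30 and 28 of the 46, against 1 of the 15 and 3 of the 55 marked B cells.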

How the results depend on the processing

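No paired analysis was possible because each group is 1 library and no test was run. The share of marked B cells was larger in the library labelled NOD.Cxcl16-/- under all 9 alternatives. From 0.794% and 2.62% it moved to 1.55% and 3.63% with mixed-lineage barcodes kept, to 0.119% and 0.592% after thinning and to 0.212% and 1.0% when all 3 marking genes were required. Limits on T-cell and myeloid transcripts scaled to depth, chosen after seeing the data, gave 0.889% and 2.90%. The members with the larger share in the library labelled NOD.Cxcl16-/- stayed at 6 of 6 in B cells, went from 4 to 1 in plasma cells after thinning and from 2 to 5 in CD4 helper cells with mixed-lineage barcodes kept. Pairs with the larger joint share went from 15 to 8 in the NOD library and to 11 in the other after thinning. With 10 CPM added, genes at least 2-fold higher in marked cells went from 1383 to 707 and from 1297 to 727. Genes at least 1.5-fold higher between the libraries went from 395 to 60 with 10 CPM added and to 261 without marked cells, and lower ones from 318 to 26 with 10 CPM added and to 198 with a 50-UMI filter. Filters and thinning test fewer genes or counts by construction, and a larger added CPM shrinks every ratio by construction. For the other changes the cause was not tested. Thinned shares of S1pr2 and Mef2b in B cells had intervals that overlapped those of CD8 T cells in both libraries.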
